A study of Homo sapiens with 5 samples.

Results

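The regions described here are places on human chromosomes where both ASXL1 and O-GlcNAc were called by ChIP-seq and FOXK1 was not. They were found by pooling the peaks of the 3 lists on chromosomes 1 to 22 and X and merging those that overlapped by at least 1 bp. Members were chosen by the peak calls of all 3 libraries: a merged region was a member when it held at least 1 ASXL1 peak, at least 1 O-GlcNAc peak and no FOXK1 peak. This gave 13572 members among 159864 merged regions, or 8.49% of them. The counts, scores, widths and distances that follow rest on the same calls, so they describe the members and test nothing.

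The cell line of all libraries was Flp-In HEK293 T-REx, which derives from human embryonic kidney and was built to take up a transgene at 1 fixed site with tetracycline control. No treatment is named in the labels. ChIP-seq was done with 1 library per antibody. The ASXL1 and O-GlcNAc libraries shared chromatin preparation 63 and its input, while FOXK1 had preparation 62 with its own input. Whether a region lacks FOXK1 or differs by preparation therefore cannot be told apart, and no comparison has a replicate error. Sequencing depth is unknown.

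ASXL1 is the partner that activates BAP1, an enzyme that removes ubiquitin from histone H2A at the lysine that Polycomb complexes mark. O-GlcNAc is a single sugar that the enzyme OGT places on serine and threonine of many nuclear proteins. OGT and its heavily modified substrate HCFC1 are known partners of BAP1, and the forkhead factors FOXK1 and FOXK2, which bind DNA themselves, are known to join the same complex. The O-GlcNAc antibody reads the sugar on any protein, so the protein that carries it at a region is not known from these lists. No hg19 sequence or gene annotation was used here, so members are named by position alone, in hg19 coordinates counted from 1.

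Most of the places where ASXL1 and O-GlcNAc met had no listed FOXK1 peak. The FOXK1 list is much the shortest, with 21481 peaks on these chromosomes against 94093 for ASXL1 and 78700 for O-GlcNAc, which limits how many regions can hold one. Of 19803 regions that held both, 13572 had no FOXK1 peak (68.5%, 95% Wilson interval 67.9 to 69.2) and 6231 had one. The share with a FOXK1 peak was lower still where only one of the pair was listed. It was 3.82% (interval 3.69 to 3.96) for ASXL1 regions without O-GlcNAc and 3.33% (3.19 to 3.48) for O-GlcNAc regions without ASXL1. These intervals, like all that follow, cover counting error only, since regions are not replicates and reads were amplified by PCR.

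The members contained 14319 ASXL1 peaks, 15.2% of that list on these chromosomes, and 14422 O-GlcNAc peaks, 18.3% of that list. Together the members covered 11.4 Mb. Their median width was 711 bp, with the narrowest at 141 bp and the widest at 11828 bp. A member joins at least 2 peaks, so peak widths are compared list by list. The highest ASXL1 peak of a member had a median width of 614 bp, against 244 bp for regions of ASXL1 alone, and the highest O-GlcNAc peak 477 bp, against 215 bp for regions of O-GlcNAc alone. In regions of all 3 lists these medians were 611 bp and 512 bp, so wide peaks were not particular to members. Overlap with a peak of the other list is part of the rule, and whether that favours wide peaks was not tested.

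The usual member was a simple pair. In 12219 members (90.0%, interval 89.5 to 90.5) there was exactly 1 peak of each list. A single ASXL1 peak met 2 or more O-GlcNAc peaks in 621 members, the reverse held in 565, and 167 had 2 or more of each. Regions of all 3 lists were simple pairs of ASXL1 and O-GlcNAc less often, in 79.0% (78.0 to 80.0), and here a FOXK1 peak can itself join neighbouring peaks into 1 region.

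The highest peaks of the 2 lists lay close to each other inside a member. The rule itself asks for overlapping peaks, which bounds this distance by the peak widths, so small values are largely fixed by it. The median distance between their middles was 83.2 bp (25th to 75th percentile 36.0 to 165 bp), which is small beside the median widths of these peaks. The middles were at most 100 bp apart in 7735 members (57.0%) and more than 500 bp apart in 410 (3.02%). O-GlcNAc lay on the side of higher coordinates in 6792 members, near 50%, so neither list was displaced along the reference strand. In regions of all 3 lists the median distance was 83.0 bp (interval of the median 80.0 to 85.0, against 81.5 to 85.0 in members), and the intervals overlapped.

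ASXL1 had the wider peak in 9072 members (66.8%). The O-GlcNAc peak lay wholly within the ASXL1 peak in 5083 members (37.5%), the ASXL1 peak lay within the O-GlcNAc peak in 1612 (11.9%), and the peaks were staggered in 6863 (50.6%). In 14 members the highest peaks did not touch and were linked by a further peak. In regions of all 3 lists the highest ASXL1 and O-GlcNAc peaks were joined only through another peak in 3.21%, against 0.103% of members, which lowers the other shares there. O-GlcNAc lay inside ASXL1 in 35.9% of these regions, ASXL1 inside O-GlcNAc in 13.2%, and 47.7% were staggered.

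How the peaks lay to each other went with their scores. The score is the value that the authors' peak caller gave each peak, it starts at 50, and scores of different lists share no scale. A score of 100 was used to split weak from strong peaks within each list. Among members, 9911 reached it for ASXL1 (73.0%), against 32.8% of all regions with an ASXL1 peak, and 7467 reached it for O-GlcNAc (55.0%), against 21.0% of all regions with an O-GlcNAc peak. Regions of all 3 lists reached it more often than members, in 83.1% for ASXL1 and 70.2% for O-GlcNAc.

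The split gave 4 score groups. Both scores were at least 100 in 6610 members (48.7%), the ASXL1 score alone in 3301 (24.3%), the O-GlcNAc score alone in 857 (6.31%) and neither in 2804 (20.7%). A score of 100 need not mean the same strength in both lists. Where ASXL1 alone reached it, O-GlcNAc lay inside ASXL1 in 49.8% and ASXL1 inside O-GlcNAc in 5.63%. Where O-GlcNAc alone reached it, ASXL1 lay inside O-GlcNAc in 27.9%, the reverse held in 14.4%, and most pairs were staggered (57.8%). Where both were weak, 71.1% of the pairs were staggered (59.3% in regions of all 3 lists), and the peaks had median widths of 254 bp for ASXL1 and 243 bp for O-GlcNAc. Where both were strong these widths were 823 and 688 bp, and 44.0% of the pairs were staggered (46.0% in regions of all 3 lists). The median distance between the middles changed little beside them, from 66.5 bp where O-GlcNAc alone was strong to 94.0 bp where ASXL1 alone was.

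**Figure D1:**
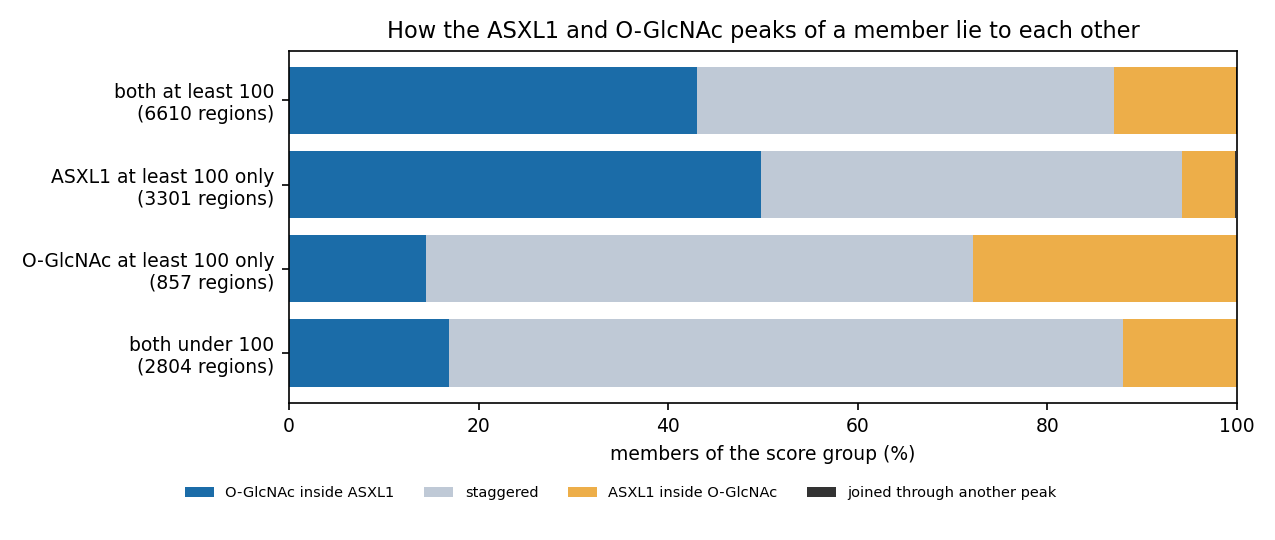
Share of members (horizontal axis, percent) in which the highest O-GlcNAc peak lies inside the ASXL1 peak, the ASXL1 peak lies inside the O-GlcNAc peak, the peaks are staggered, or they are joined through another peak, for the 4 score groups (rows, with the number of members). Nesting of O-GlcNAc in ASXL1 is most frequent where ASXL1 alone reaches a score of 100 (49.8%), and staggered pairs where neither does (71.1%).

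The ASXL1 scores of the members had a broad and uneven distribution. The lowest was 50, the median 269 and the highest 3225, and the 25th and 75th percentiles were 92.8 and 720. On a log scale they formed a low group and a high group. Scores from 64.0 to 90.5 held 1803 members (13.3%), the classes of the same log width then fell to 1005 members (7.40%) between 181 and 256, and they rose again to 1294 (9.53%) between 512 and 724. Regions of all 3 lists had a shallower form of this, with 10.6% between 128 and 181, 8.62% between 362 and 512 and 9.60% between 512 and 724. Regions of ASXL1 alone had no second rise, with a 90th percentile of 143.

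The O-GlcNAc scores of the same members ran from 50 to 3233 with a median of 111, and the 25th and 75th percentiles were 69.9 and 239. Their histogram fell steadily from 2842 members (20.9%) between 64.0 and 90.5. A second rise like that of ASXL1 was not seen in it. Regions of all 3 lists had higher medians in both lists, 336 for ASXL1 (interval 320 to 355, against 258 to 280 in members) and 165 for O-GlcNAc (159 to 171, against 109 to 114).

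**Figure D2:**
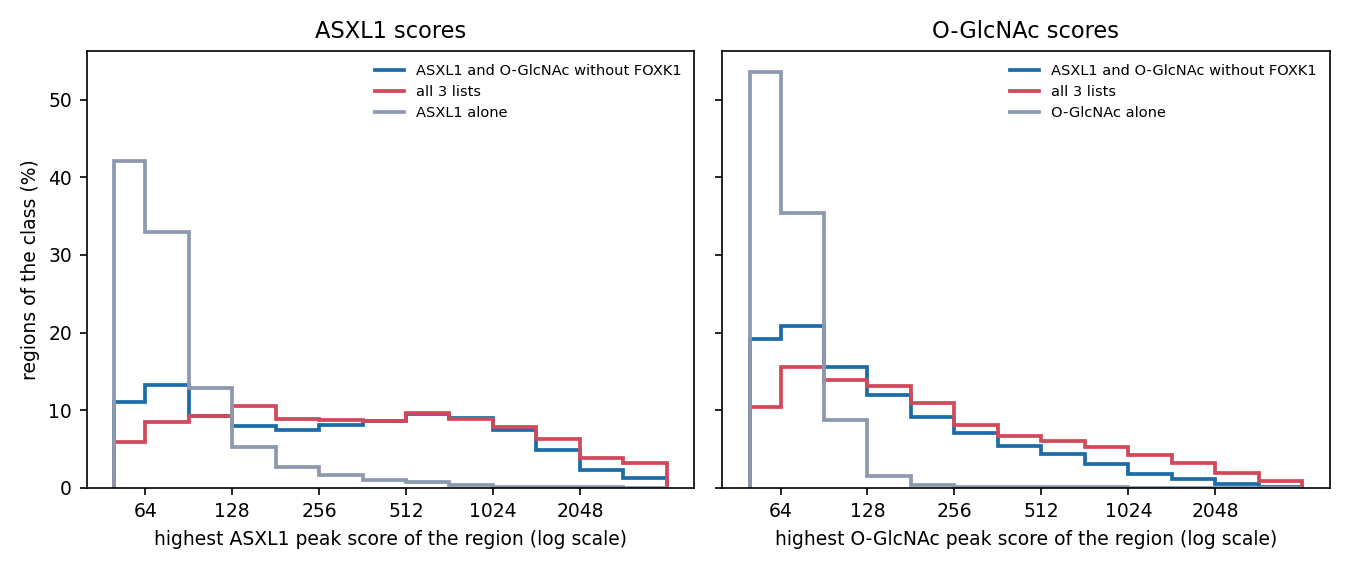
Histograms of the highest ASXL1 score (left) and the highest O-GlcNAc score (right) per region on a log axis, as percent of the regions of each class; the lowest class starts at 50 and is narrower than the rest. Members show a low and a high group of ASXL1 scores with a dip between 181 and 256, and a single falling slope of O-GlcNAc scores.

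Across the 13572 members, Spearman's rho between the ASXL1 and O-GlcNAc scores was 0.580. With the 10000 highest peaks of each list it was 0.270, a setting that removes weak peaks and narrows the range of scores. In the full lists it was 0.621 across the 6231 regions of all 3 lists. Both libraries share the chromatin preparation and its input, and scores also rise with peak width (rho 0.768 for ASXL1 and 0.654 for O-GlcNAc across members), so rho is given as a description. Within the score groups it was lower, from 0.400 where both were strong to 0.0385 where both were weak. The split narrows the range of scores within a group, and among weak members the scores of the lists were nearly unrelated.

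Members were the largest class among the 10000 highest peaks of both lists, but not among all peaks. Of the 10000 highest ASXL1 peaks, 5505 lay in members (55.0%, interval 54.1 to 56.0), 29.2% in regions of all 3 lists and 14.3% in regions of ASXL1 alone. Of the 10000 highest O-GlcNAc peaks, 5487 lay in members (54.9%, 53.9 to 55.8) and 35.7% in regions of all 3 lists. Among the 30000 highest peaks, regions of one list alone were the largest class, with 43.6% against 33.8% in members for ASXL1 and 44.9% against 33.2% for O-GlcNAc.

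Nearer the top the share in regions of all 3 lists was higher. Of the 1000 highest ASXL1 peaks, 484 lay in members (48.4%, interval 45.3 to 51.5) and 448 in regions of all 3 lists (44.8%, 41.7 to 47.9), and the intervals overlapped. Of the 1000 highest O-GlcNAc peaks, 400 lay in members (interval 37.0 to 43.1%) and 572 in regions of all 3 lists (57.2%, 54.1 to 60.2). Of the 100 highest O-GlcNAc peaks, 21 lay in members (14.2 to 30.0%) and 76 in regions of all 3 lists, so most of these held a FOXK1 peak. The 100 highest ASXL1 peaks cannot be picked by score, because 124 members share a score of 3100.

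**Figure D3:**
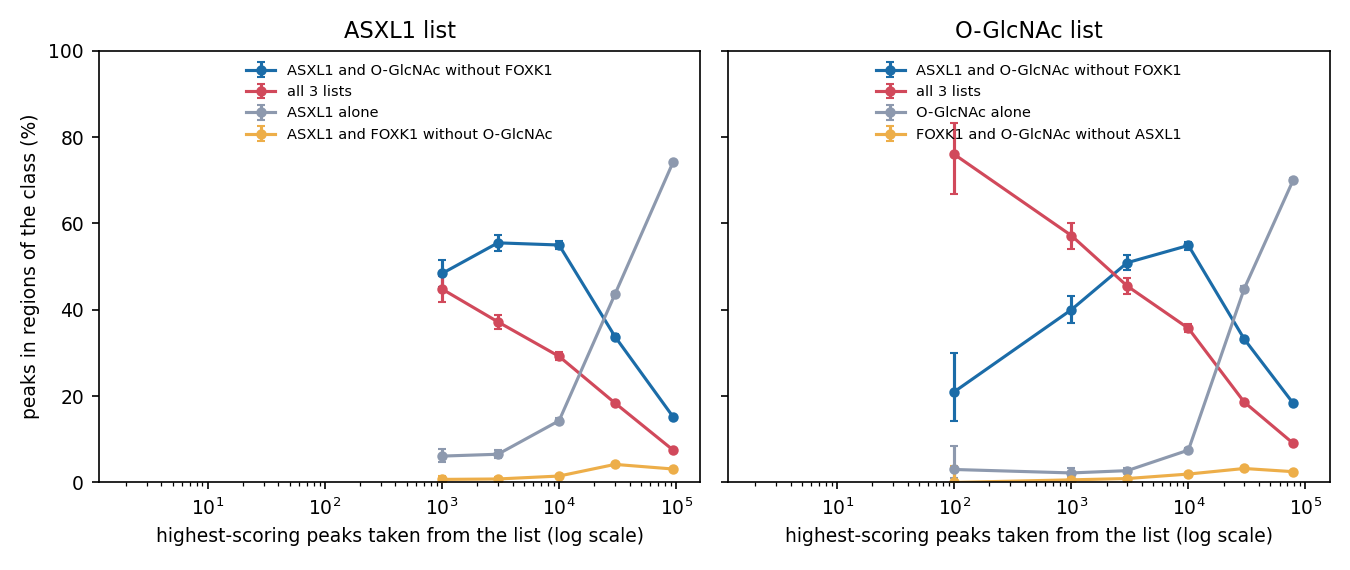
Share of the highest-scoring peaks of the ASXL1 list (left) and the O-GlcNAc list (right) that lie in each class of region, against the number of peaks taken from the top (log axis), with 95% Wilson intervals. The 100 highest ASXL1 peaks are not shown, since tied scores would decide which they are. Members hold 55.0% and 54.9% of the top 10000 peaks, 48.4% of the top 1000 ASXL1 peaks and 21.0% of the top 100 O-GlcNAc peaks.

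The share of regions without FOXK1 followed the 2 scores in different ways. The 19803 regions with ASXL1 and O-GlcNAc were split into 10 classes by each score. By O-GlcNAc score, the share without FOXK1 fell from 79.6% (interval 77.7 to 81.3) in the lowest class to 63.0% in the ninth and 48.3% (46.1 to 50.5) in the highest. By ASXL1 score it went down, up and down again. It was 80.6% (78.8 to 82.2) in the lowest class, 62.1% (59.9 to 64.2) in the fourth, 68.9% (66.9 to 70.9) in the seventh and 58.1% (55.9 to 60.3) in the highest. The interval of the fourth class, at ASXL1 scores from 126 to 188, lay apart from those of the third (67.2 to 71.2) and the sixth (68.0%, from 65.9) but overlapped that of the fifth (64.6%, 62.5 to 66.7).

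The fall with O-GlcNAc score was also seen within most ASXL1 classes. Among regions of the eighth ASXL1 class, 83.9% (52 of 62) lacked FOXK1 in the lowest O-GlcNAc class and 43.7% (132 of 302) in the highest. In the fourth ASXL1 class the share was 72.8% (198 of 272) and 66.7% (34 of 51) at the same ends, with intervals of 67.2 to 77.7 and 53.0 to 78.0. Comparing these ends, the intervals were apart in 6 of the 10 ASXL1 classes (the second and the fifth to the ninth). They overlapped in the first, the third, the fourth and the tenth. Some end cells of both kinds hold few regions, such as 10 in the first ASXL1 class and 16 in the second. The dip at the fourth ASXL1 class was not kept throughout. That class was the lowest in the second, the third, the fourth and the seventh O-GlcNAc class (64.5%, 59.4%, 62.6% and 52.1%), while in the ninth and the tenth it had 69.1% and 66.7%, above the fifth ASXL1 class (62.5% and 53.3%).

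The 4 score groups gave a coarser view of the same regions. The group with both scores under 100 lacked FOXK1 in 81.2% (79.8 to 82.4) and the group with both at least 100 in 62.5% (61.5 to 63.4), 18.7 points apart (interval 17.1 to 20.3).

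**Figure D4:**
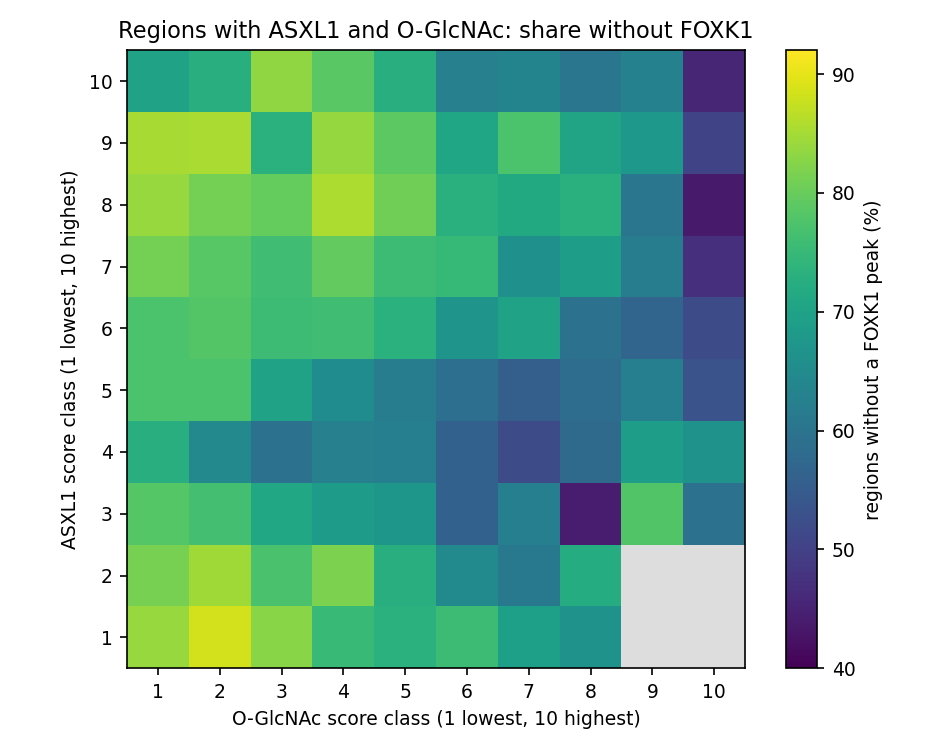
Share of regions without a FOXK1 peak (colour, percent) among regions with ASXL1 and O-GlcNAc, by class of O-GlcNAc score (horizontal) and of ASXL1 score (vertical), 10 classes each; grey cells hold under 20 regions. The column of the highest O-GlcNAc class is darkest where ASXL1 is strong (43.7% in the eighth ASXL1 class), and the fourth ASXL1 class is the lowest in the second, the third, the fourth and the seventh O-GlcNAc class (52.1 to 64.5%) but not in the ninth and the tenth (69.1% and 66.7%).

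The share without FOXK1 was also taken by width, which rises with score and was not separated from it here. Width was the span of the highest ASXL1 and O-GlcNAc peaks, which leaves the FOXK1 peak out. The share without FOXK1 was 81.0% (79.2 to 82.6) in the narrowest of 10 span classes, 63.3% (61.2 to 65.4) in the fourth and 69.0% (66.9 to 71.0) in the widest.

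The score and the place of the O-GlcNAc peak differed with the width of the ASXL1 peak. In the 194 members whose ASXL1 peak was at least 2400 bp wide, the median ASXL1 score was 1920 and the median O-GlcNAc score 152. Members with an ASXL1 peak of 1200 to 2400 bp had medians of 854 and 221. In the narrower classes, under 300 bp, 300 to 600 bp and 600 to 1200 bp, the median O-GlcNAc scores were 70.5, 94.2 and 170. The ASXL1 medians thus rose over all 5 width classes, while the O-GlcNAc medians rose over the first 4 and were lower in the widest. Regions of all 3 lists had the same lower O-GlcNAc median at the last step, 280 after 412.

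Relative to peak width, the middles of the 2 peaks were closest in ASXL1 peaks of moderate width. The O-GlcNAc middle lay at a median of 0.491 of the way from the ASXL1 middle to the ASXL1 edge in the widest class, against 0.253 at 1200 to 2400 bp and 0.201 at 600 to 1200 bp. The value was 0.320 at 300 to 600 bp and 0.576 under 300 bp, so it was large at both ends of the width range. It takes the ASXL1 width alone, so in narrow ASXL1 peaks a small distance gives a large value. O-GlcNAc was inside the ASXL1 peak in 88.1% of the widest class, and 34.5% of that class held 2 or more O-GlcNAc peaks. The 111 regions of all 3 lists with such wide ASXL1 peaks had a median of 0.477, near the 0.491 of the members. Their narrower classes were also near those of members, with 0.571 under 300 bp, 0.314 at 300 to 600 bp, 0.203 at 600 to 1200 bp and 0.254 at 1200 to 2400 bp.

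The 3 widest members are examples of such long ASXL1 peaks. At chromosome 1, positions 149821798 to 149833625, a single ASXL1 peak of 11828 bp and score 1702 held 3 O-GlcNAc peaks, the highest with a score of 301 and its middle 5140 bp from that of ASXL1. At chromosome 19, positions 35751324 to 35760937, an ASXL1 peak of 9614 bp (score 1928) held 1 O-GlcNAc peak of 1490 bp and score 254. At chromosome 19, positions 51292599 to 51302212, an ASXL1 peak of the same width and score 3100 held 2 O-GlcNAc peaks, the highest with a score of 142. In each of them the highest O-GlcNAc peak took up a small part of a long ASXL1 peak.

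The member with most peaks had another form. It lay at chromosome 3, positions 113414801 to 113416312, where 3 ASXL1 and 3 O-GlcNAc peaks lay within 1512 bp, with highest scores of 241 for ASXL1 and 724 for O-GlcNAc. Its O-GlcNAc score ranked 886 among members and its ASXL1 score 7114. The next by number of peaks, at chromosome 5, positions 177635590 to 177644139, had 1 ASXL1 peak of 8550 bp with a score of 3100 and 4 O-GlcNAc peaks, the highest at 90.5. The third lay at chromosome 8, positions 145747097 to 145754752, with 2 ASXL1 and 3 O-GlcNAc peaks and highest scores of 1375 and 456.5.

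The strongest members were taken as the 10 with the lowest sum of both score ranks, where members tied at a score shared the mean of their ranks. The 124 members tied at an ASXL1 score of 3100 thus share a rank behind the 12 above it, and counting ties at their best rank would put the second position named here first. A value shared by so many members may be a ceiling of the score, which no header states. Members at 3100 therefore need not be weaker than the 12 above it, and the order of the named positions is one of rank only. First came chromosome 1, positions 236957689 to 236959764, with an ASXL1 score of 3181 and an O-GlcNAc score of 2646. Next were chromosome 19, positions 36979776 to 36981420 (3100 and 2997), and chromosome 19, positions 37177274 to 37179096 (3100 and 2581). The fourth, at chromosome 5, positions 137799247 to 137807338, had scores of 3100 and 2316, with an ASXL1 peak of 7865 bp and the O-GlcNAc middle 3002.5 bp away. At these places both lists were near their upper end and FOXK1 was still not called.

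The next members were wider than most. At chromosome 21, positions 44298808 to 44300254, the scores were 3100 and 2200 and the middles of the peaks were 11.5 bp apart. At chromosome 7, positions 100025459 to 100028133, the scores were 3100 and 2186. At chromosome 1, positions 235490889 to 235493135, they were 3100 and 1970. These members were 1447, 2675 and 2247 bp wide, above the 75th percentile of 1059 bp for all members.

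The last of the 10 by this rule were at chromosome 6, positions 24720475 to 24722138 (3100 and 1792), at chromosome 1, positions 167904454 to 167906494 (3100 and 1747), and at chromosome 19, positions 59069511 to 59071389 (3080 and 2069). Of the 10, 3 lay on chromosome 19 and 3 on chromosome 1. The nearest FOXK1 peak was between 2.37 kb and 134 kb away, so none of the 10 had one within 1000 bp.

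A member of ordinary strength is small beside these. At chromosome 11, positions 117186832 to 117187360, an ASXL1 peak of 529 bp with a score of 270 enclosed an O-GlcNAc peak of 407 bp with a score of 110.4, the middles 39.0 bp apart. The other members nearest to both medians were at chromosome 3, positions 52016432 to 52017631 (262 and 112), and at chromosome X, positions 122648172 to 122648465 (283 and 111). Their widths were 1200 and 294 bp, so members of like scores differed in width.

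Members were set apart from regions of all 3 lists by the FOXK1 call alone, so the values at that edge were examined. A FOXK1 peak ended within 100 bp of 124 members (0.914%) without overlapping them. The median scores of these members were 203 for ASXL1 and 94.5 for O-GlcNAc. On the other side of the edge, 305 regions of all 3 lists had a FOXK1 score under 54, and their medians were 242 and 145. The nearest case was at chromosome 12, positions 109083087 to 109083492 (scores 104 and 73.3), where a FOXK1 peak abutted the member with 0 bp between them.

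The median gap from a member to the nearest FOXK1 peak was 29.1 kb (25th to 75th percentile 9.06 to 73.6 kb), less than for regions of ASXL1 alone (32.6 kb) and of O-GlcNAc alone (42.9 kb). A FOXK1 peak lay within 1000 bp of 851 members (6.27%), against 3.99% of all regions without a FOXK1 peak. Members more than 10000 bp away numbered 9946 (73.3%), with median scores of 284 for ASXL1 and 117 for O-GlcNAc. The 727 members with a gap over 100 and up to 1000 bp had lower medians, 165 and 92.9. The 2775 members at over 1000 and up to 10000 bp lay between, at 244 and 101. Both scores reached 100 in 43.5% of members within 100 bp of a FOXK1 peak, in 37.4% of those at over 100 and up to 1000 bp, in 44.0% of those at over 1000 and up to 10000 bp, and in 50.9% of those beyond 10000 bp. Beyond 100 bp the share thus rose with distance. The value within 100 bp rests on 124 members and is given without an interval, so its place in this order is not settled. Strong members occurred at all of these distances.

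Members occurred on all 23 chromosomes examined, and densely on chromosome 19, which is known for its high gene density. That chromosome held 902 members, or 15.3 per Mb of length, counted up to the highest peak end. Stretches without sequence were not taken off this length. Chromosome 17 followed with 10.1 per Mb (822 members). Chromosome 13 had the lowest density on this measure with 2.16 per Mb (249 members), near chromosomes 4 (2.38), X (2.42) and 18 (2.47). Chromosome 1 had the highest number, 1606, at 6.44 per Mb. Regions of all 3 lists were also densest on chromosome 19 (4.79 per Mb), followed by chromosome 17 (3.68 per Mb). No density over all merged regions is given here.

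The share without FOXK1 also differed between chromosomes. It was highest on chromosomes 22 (77.4%, interval 73.1 to 81.1), 21 (77.3%, 72.0 to 81.9), 19 (76.1%, 73.6 to 78.5) and 17 (73.4%, 70.7 to 75.9). It was lowest on chromosomes 6 (61.1%, 58.6 to 63.5), 5 (63.2%, 60.4 to 65.9) and 4 (65.4%, 61.8 to 68.9). Neighbours in this order had overlapping intervals, while chromosomes 19 and 6 differed by 15.0 points (interval 11.6 to 18.5). With the 4 score groups weighted alike on every chromosome, the shares were 79.2% for chromosome 19 and 60.8% for chromosome 6.

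The difference between these chromosomes was present in each score group. With both scores at least 100, 69.6% of 803 regions on chromosome 19 and 51.6% of 770 on chromosome 6 lacked FOXK1. With both under 100 the shares were 92.8% of 125 and 75.4% of 281. Across the 23 chromosomes the share without FOXK1 had a Spearman's rho of 0.468 with the density of members, as a description, and both measures count the same members.

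**Figure D5:**
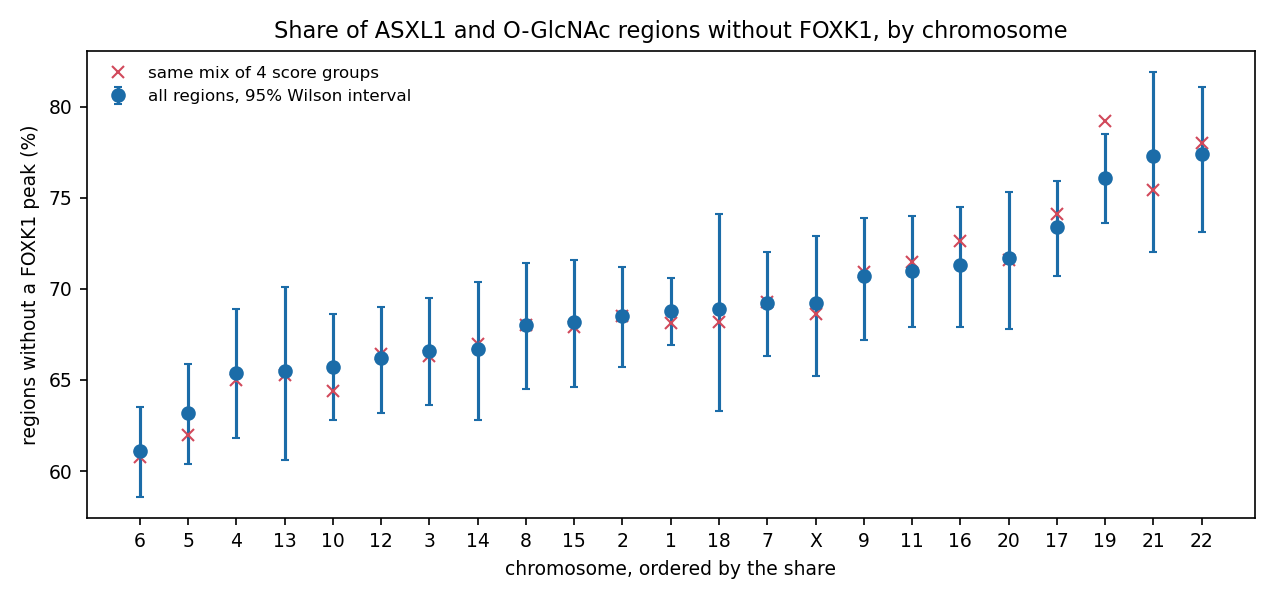
Share of ASXL1 and O-GlcNAc regions without a FOXK1 peak on each chromosome (points, with 95% Wilson intervals), ordered by the share, and the same share with the 4 score groups weighted alike (crosses); the vertical axis starts above 0. Chromosomes 6 and 5 are lowest (61.1% and 63.2%) and chromosomes 21 and 22 highest (77.3% and 77.4%).

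Within chromosomes the members were spread widely. Of 3049 windows of 1 Mb, 2233 (73.2%) held a member, with a median of 4.00 members where there was any. Windows with 20 or more members numbered 74 and held 1868 members (13.8%). The highest number, 36, was reached by chromosome 16 from 30000001 to 31000000, chromosome 6 from 27000001 to 28000000 and chromosome 6 from 30000001 to 31000000.

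These 3 windows differed in FOXK1. The window on chromosome 16 held 11 regions of all 3 lists beside its 36 members (76.6% without FOXK1, interval 62.8 to 86.4), and the window of chromosome 6 at 30000001 held 10 (78.3%, 64.4 to 87.7). The window of chromosome 6 at 27000001 held 39 (48.0% without FOXK1, 37.1 to 59.1). The short arm of chromosome 6 is known for its large cluster of histone and tRNA genes and for the major histocompatibility genes. The 3 windows of chromosome 6 with most regions of all 3 lists ran from 26000001 to 29000000, and choosing them by that count fixes a low share there. In them 88 members stood beside 109 regions of all 3 lists, a share without FOXK1 of 44.7% (37.9 to 51.6). On the rest of chromosome 6 it was 63.6% (60.9 to 66.2), still below the 68.5% of all chromosomes together. On chromosome 19, 5 windows held 31 to 34 members each. Their shares without FOXK1 ran from 70.8% (56.8 to 81.8), at 44000001 with 14 regions of all 3 lists, to 85.0% (70.9 to 92.9), at 1000001 with 6. These intervals overlapped each other and those of the windows at chromosome 16 and chromosome 6, 30000001.

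Neighbouring members were usually far apart, with a median gap of 64.8 kb (25th to 75th percentile 17.9 to 185 kb). A short gap of at most 1000 bp separated 819 pairs of neighbours (6.04%), against 154 pairs (2.48%) among the fewer regions of all 3 lists. The nearest region of all 3 lists was at a median of 81.3 kb, and 509 members (3.75%) had one within 1000 bp. In these few places ASXL1 and O-GlcNAc continued beside a region where FOXK1 was also called.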

How the data were processed

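ChIP-seq peak lists of 3 libraries (ASXL1, FOXK1, O-GlcNAc; 1 each) from Flp-In HEK293 T-REx cells were used. Per the labels, fixation took 10 min in 1% formaldehyde, and each library was compared with the input of its own preparation; the 2 input libraries were not analysed here. The submitters' processing notes name Bowtie2 2.0.0, MACS 1.4 and hg19, with no settings. Each deposited peak carries a score of the authors' caller, from 50 upward, in the form of −10 times log10 of a p-value, though no header states this. A deeper library gives more weak peaks, and depth is unknown, so a region without a FOXK1 peak is one without a listed peak, not one shown to lack FOXK1.

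Peaks on chromosomes 1 to 22 and X were merged at an overlap of at least 1 bp. The merging was tested on simulated lists and gave the same number of members, 13572, as bedtools 2.31.1. The score, width and position per list are those of its highest-scoring peak in a region. Shares have 95% Wilson intervals, medians have order-statistic intervals and differences have normal intervals (Python 3.11.15, scipy 1.17.1). With 1 library per antibody no p-value was computed. Chromosome length was the highest peak end. Named positions were the 10 members of lowest summed score rank (ties at their mean rank) and 3 each of the widest, of most peaks, nearest both medians and nearest a FOXK1 peak. The members and rules were chosen with earlier results of these data known. The alternatives were scores of 100 or more in all 3 lists, the top 10000 peaks of each list, 50% overlap, no FOXK1 peak within 1000 bp, and lists without the widest 1% of peaks.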

Additional observations from a re-analysis of the deposited data

Results flagged for a closer look

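Outside the chromosomes used for the members, 25 further regions held ASXL1 and O-GlcNAc peaks without a FOXK1 peak, 5 of them on chromosome Y and 20 on unlocalised or other contigs. They lie in data that the report did not use. There, 16 regions held peaks of all 3 lists, so the share of ASXL1 and O-GlcNAc regions without FOXK1 was 61.0% (45.7 to 74.3), and its interval holds the 68.5% of the chromosomes used.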

How the results depend on the processing

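No paired analysis was possible because there was 1 library per antibody, which also means that leaving out a library in turn could not be done. Results at gene starts and the GC share, planned at the outset, were not run, since no hg19 annotation or sequence was used here. The settings without chromosome 6, with 1 peak of each list, with a common mix of score groups and without the 3 windows of chromosome 6 with most regions of all 3 lists, and both differences between shares, were chosen after seeing the data. Causes of these changes were not tested, beyond settings that shorten the lists. With peaks under 100 left out of all 3 lists, FOXK1 included, there were 8051 members. Of ASXL1 and O-GlcNAc regions, 76.1% were then without FOXK1, the median distance was 85.5 bp and rho 0.407. This share is unlike the 62.5% of the group with both scores at least 100, which keeps FOXK1 peaks under 100. The 10000 highest peaks of each list left 4290 members, 70.7%, 90.0 bp and a rho of 0.270; both settings remove weak peaks. An overlap of 50% of the shorter peak gave 75.5 bp, a rho of 0.565 and 16.7 points between weak and strong score groups. With no FOXK1 peak within 1000 bp the share was 64.2% and this difference 15.5 points. Without the widest 1% of peaks the distance was 79.5 bp, and with 1 peak of each list 75.0 bp. The difference between chromosomes 19 and 6 ranged from 12.5 points, without the 3 windows of chromosome 6, to 18.4 points over all settings run for it. Only rho and the differences between shares could change sign, and they did not in the settings run for them. The difference between weak and strong score groups is not given for scores of at least 100 or for the 10000 highest peaks.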
